A study of Mus musculus and Homo sapiens with 4 samples.

Results

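Binding of Miz1 in a stretch of human chromosome 19 that holds a tandem cluster of zinc-finger genes was described from the deposited peak list. The stretch runs from 44 to 45 Mb in the build hg19 (bases 44000001 to 45000000). A peak was a member when its centre lay inside it, which gave 13 of the 2911 peaks in the list and 13 of the 173 on chromosome 19. The window was chosen by its number of peaks in this same list, so its number of peaks is a description and was not tested. The 11 peaks from base 44300001 onwards form the cluster part. The other 2 lie beside it, towards the centromere.

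The list comes from chromatin immunoprecipitation and sequencing of the recovered DNA (ChIP-seq) in the line labelled MDA-MD-231, grown in DMEM with fetal calf serum, with the antibody G18. No treatment or genetic change is named for these cells, and an input library, made without antibody, is labelled for the same line. The labels also describe mouse neuronal progenitor cells with another antibody, which are not used here. There was 1 Miz1 library and 1 input library per kind of cell, so no value has a replicate error. The sources used here give no read depth, and values of the input were not analysed here. No background level therefore stands beside the peaks. Copy number of the region in this line was not analysed here either.

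Miz1, encoded by ZBTB17, is itself a zinc-finger protein with a BTB/POZ domain; it binds near gene starts and can activate or, with MYC, repress transcription. Many genes of the window belong to another class of zinc-finger protein, in which an array of DNA-binding fingers is joined to a KRAB domain. That domain recruits the corepressor TRIM28 (KAP1), and with it enzymes that form heterochromatin, and many such proteins silence transposable elements. Families of these genes arose by tandem duplication and lie side by side in clusters, several of them on chromosome 19. ZNF45, ZNF221, ZNF155, ZNF230, ZNF222, ZNF223, ZNF284, ZNF224, ZNF225 and ZNF234 belong to this cluster. ZNF224 among them is known as a repressor of the gene for aldolase A. Beside the cluster in the same band lie genes of other kinds, such as XRCC1, a scaffold protein of DNA repair, PLAUR, the urokinase receptor, and KCNN4, a calcium-activated potassium channel. No annotation or genome of hg19 was used here, so no peak is assigned to one of these genes, to an exon, intron or promoter, or to a sequence.

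The first stretch of the window, 269.6 kb from its start to the centre of the first peak, held no peak. The 2 peaks beside the cluster followed. Peak 1 (bases 44269499 to 44269737) was 239 bp wide with a score of 146.83. Peak 2 (bases 44281624 to 44281830) was 207 bp wide with a score of 112.33. These were the narrowest of the 13, and their centres were 12.1 kb apart. The score is the authors' own value per peak, with no unit. Neither the list nor the labels define it, and it is used here to rank or filter peaks within this list. The lowest score listed is 100, the median of the list is 185.1, and many peaks tie at 3100, which a few exceed. Peaks scoring 3100 or more are counted together below.

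The cluster part opened 157.6 kb further on with 7 peaks spread over 277.4 kb. Peak 3 (bases 44439066 to 44439573) was the widest of the window at 508 bp, with a low score of 119.05. Peak 4 (bases 44488025 to 44488397) was 373 bp wide with a score of 205.19. The scores then reached their highest value. Peak 5 (bases 44576061 to 44576459) scored 565.11 at a width of 399 bp. It ranked 39th by score on chromosome 19, and 18.5% of the list scored higher. No window peak came nearer to 3100. Peak 6 (bases 44598250 to 44598648) had the same width of 399 bp and a score of 245.61. Peak 7 (bases 44617193 to 44617654) was 462 bp wide with a score of 161.49. Peak 8 (bases 44645487 to 44645806) was 320 bp wide with the lowest score of the window, 104.07. Scores thus declined from peak 5 to peak 8. Peak 9 (bases 44716557 to 44716970) was 414 bp wide and scored 325.38, the second highest. The 4 window peaks at or above the median of the list, peaks 4, 5, 6 and 9, were all among these 7.

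The last 4 peaks began 144.2 kb beyond peak 9 and spanned 101.6 kb. Peak 10 (bases 44860729 to 44861104) was 376 bp wide with a score of 167.35. Peak 11 (bases 44914270 to 44914742) was 473 bp wide with a score of 127.17. Peak 12 (bases 44915475 to 44915847) was 373 bp wide with a score of 168.97. A gap of 732 bp separated the end of peak 11 from the start of peak 12, the one close pair of the window. Peak 13 (bases 44962276 to 44962757) was 482 bp wide with a score of 104.09. All 4 scored below the median of the list, between 104.09 and 168.97.

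**Figure D1:**
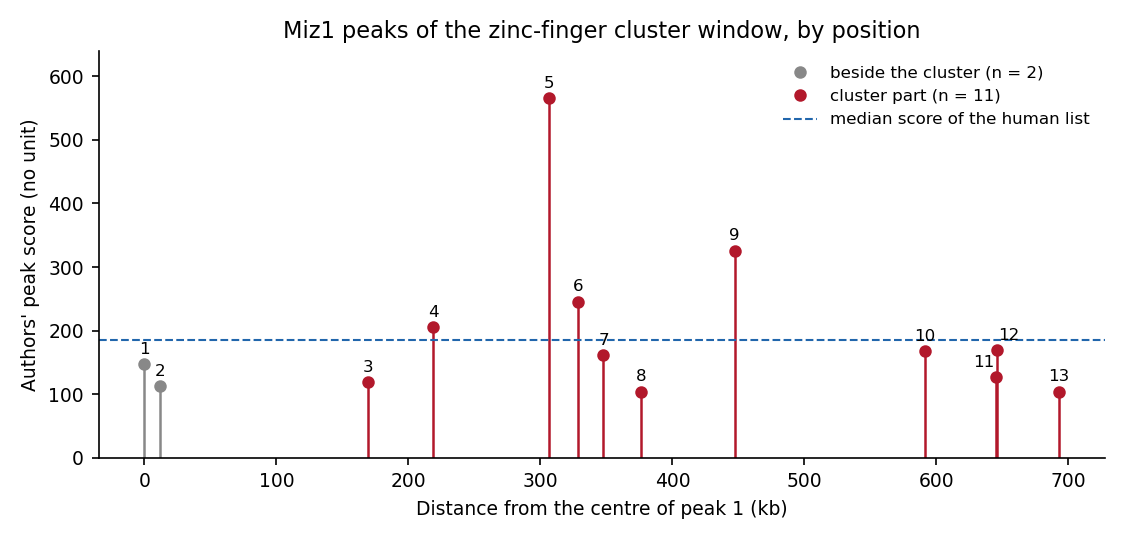
Authors' score (no unit) of each of the 13 window peaks, numbered in order along the chromosome, against distance in kb from the centre of peak 1. Grey marks the 2 peaks beside the cluster, red the 11 peaks of the cluster part, and the dashed line the median score of the human list, 185.1, which peaks 4, 5, 6 and 9 exceed.

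Outside the window the nearest peaks were far on one side and closer on the other. Towards the centromere the next peak (bases 42924270 to 42924514, 245 bp, score 101.43) lay 1345 kb from peak 1. Beyond peak 13 the next (bases 45139128 to 45139377, 250 bp, score 102.80) lay 176.7 kb away. The peak after that (bases 45175558 to 45176213) was 656 bp wide and scored 1515.47, more than any peak of the window. The edge at 45 Mb therefore falls in a gap between peaks, 37.5 kb beyond the centre of peak 13. Among stretches of 1 Mb starting at a chromosome 19 peak, the highest count was 17, first reached from the centre of peak 1. Such stretches that held no window peak had at most 10. The start at peak 1 was found by searching for the fullest stretch, and the region was already chosen by its number of peaks. Both counts are a description and were not tested.

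The peaks of the cluster part were mostly spread out rather than paired. Of the 10 distances between neighbouring centres there, 7 fell between 15 and 75 kb, 2 were longer and 1 was shorter; these limits were chosen after the distances were seen. Apart from the close pair, the shortest distances lay between peaks 5 and 8, where successive centres were 22.2, 18.97 and 28.2 kb apart. Between peaks 3 and 5 the distances were 48.9 and 88.0 kb, and between peaks 8 and 10 they were 71.1 and 144.2 kb. Peaks 10 and 11 were 53.6 kb apart, peaks 11 and 12 were 1.16 kb apart, and peaks 12 and 13 were 46.9 kb apart. The median distance was 47.9 kb, both over the 12 distances of the window and over the 10 of the cluster part. In successive stretches of 100 kb the window held 0, 0, 2, 0, 2, 2, 2, 1, 1 and 3 peaks, so from the stretch of peaks 3 and 4 onwards none was empty.

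Distance to the nearest peak was then set beside that of other peaks. In the window its median was 22.2 kb (quartiles 12.1 and 48.9 kb), and it was 77.8 kb (quartiles 17.1 and 188.4 kb) for the other 160 peaks of chromosome 19. That median, and the shares with a neighbour within a set distance, follow in part from the number of peaks that selected the window. A neighbour within 10 kb does not show the same contrast: 2 of 13 window peaks had one, or 15.4%, against 26 of 160 in the rest of the chromosome, or 16.2%. Within 25 kb the shares were 53.8% (7 of 13) and 30.6% (49 of 160). Within 50 kb they were 84.6% (11 of 13) and 45.6% (73 of 160), and within 100 kb they were 100% (13 of 13) and 53.8% (86 of 160). The window on chromosome 11 from 118 to 119 Mb, which also held 13 peaks, had a median of 2.18 kb, and 9 of its 13 peaks had a neighbour within 10 kb. On chromosome 19, the window from 13 to 14 Mb had 6 of 9 peaks with a neighbour within 10 kb, and the window from 42 to 43 Mb had 3 of 8. The median distance in the window from 42 to 43 Mb was 22.3 kb, close to the 22.2 kb of the zinc-finger window. Within 25 kb, 6 of its 8 peaks had a neighbour, or 75%, and the share stayed at 75% within 50 and 100 kb. In the chromosome 11 window 84.6% had a neighbour within 50 kb and 100% within 100 kb. For the window from 13 to 14 Mb these shares were 88.9% and 100%. High shares at 50 and 100 kb are therefore not particular to the zinc-finger window. The zinc-finger window had fewer peaks with a neighbour within 10 kb than these 3 windows, 2 in all. Those windows also hold many peaks, and the share of 15.4% was close to the 16.2% of the rest of the chromosome. The low count is therefore not a feature that sets the zinc-finger window apart from peaks at large on chromosome 19. These differences were not tested, because peaks of 1 library are not replicates.

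**Figure D2:**
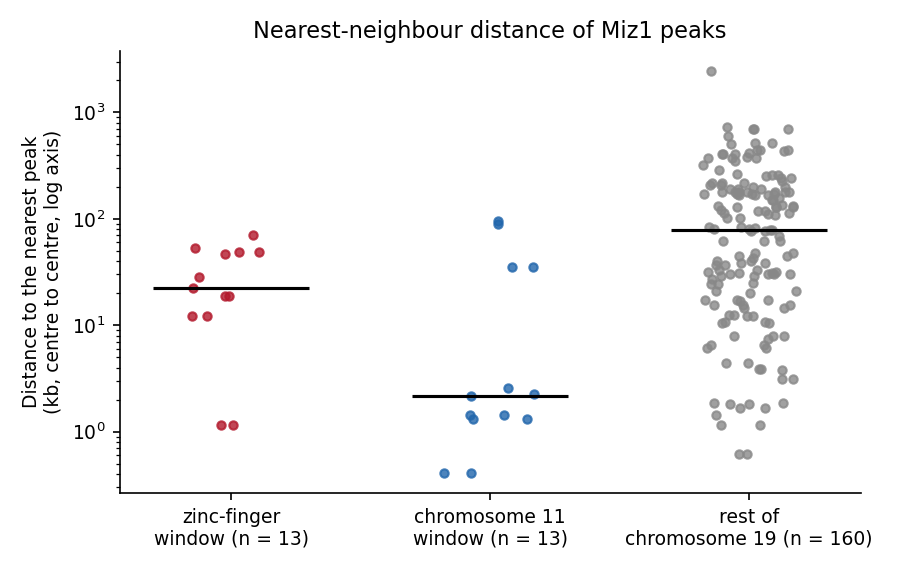
Distance in kb from each peak centre to the nearest other centre (log axis) for the 13 peaks of the zinc-finger window, the 13 of the chromosome 11 window and the other 160 of chromosome 19; bars are medians (22.2, 2.18 and 77.8 kb) and points are spread sideways at random. Apart from the pair at 1.16 kb, the zinc-finger window peaks lie between 12.1 and 71.1 kb.

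The window peaks were of middling width. The 13 widths ran from 207 to 508 bp, with a median of 399 bp (quartiles 373 and 462 bp, exact order-statistic 95% interval of the median 320 to 473 bp). The other 160 peaks of chromosome 19 ran from 87 to 1836 bp with a median of 421.5 bp (quartiles 322 and 560.5 bp, interval 389 to 459 bp). The standard deviation over peaks was 89.9 bp in the window and 264.5 bp in the rest of the chromosome. It was 111.1 bp in the window from 42 to 43 Mb, with widths of 245 to 560 bp, so a small spread is not limited to the zinc-finger window. It was 440.8 bp in the window from 13 to 14 Mb and 368.1 bp in the window on chromosome 11. In the cluster part the 11 widths ran from 320 to 508 bp (standard deviation 57.7 bp), a range that held 69 of the other 160 peaks, or 43.1%. A range set by 11 peaks holds those peaks by construction, so the share is a description.

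Broad peaks were few. Peak 3, at 508 bp, was the 1 window peak wider than 500 bp, or 7.69% (exact Clopper-Pearson 95% interval 0.195 to 36.0%). In the rest of chromosome 19, 54 of 160 peaks were wider than 500 bp, or 33.8% (interval 26.5 to 41.6%). The share in the whole list was lower, 698 of 2911, or 24.0% (interval 22.4 to 25.6%). The differences were not tested. The chromosome 11 window had 6 of 13 peaks wider than 500 bp, the chromosome 19 window from 13 to 14 Mb had 7 of 9, and that from 42 to 43 Mb had 2 of 8. These intervals take peaks as units and cover counting error only, not variation between libraries.

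Scores of the window peaks were low to moderate. They ran from 104.07 to 565.11, with a median of 161.49 (quartiles 119.05 and 205.19, interval of the median 112.33 to 245.61). The rest of chromosome 19 ran from 100.22 to 3224.61, with a median of 182.2 (quartiles 119.7 and 538.9, interval 152.69 to 215.27). The lower quartiles and the medians were close, and the sets parted at the upper end. Of the other 160 peaks, 38 scored above the highest window peak, or 23.8%. No window peak can exceed that limit by construction, so the share is a description. At or above the median of the list stood 4 of 13 window peaks, or 30.8% (exact interval 9.09 to 61.4%), and 76 of the other 160, or 47.5% (interval 39.6 to 55.5%), a difference that was not tested either. At 3100 or more there were 0 of 13 window peaks, which allows a share of up to 24.7%, and 7 of 160 in the rest of the chromosome, or 4.38%. A share of that size lies under the limit that 0 of 13 allows.

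Within the window, width and score did not go together: across the 13 peaks Spearman's rho was 0.02 and Pearson's r was 0.08. Across the other 160 peaks of chromosome 19 rho was 0.37 and r was 0.54. The widest window peak, peak 3, ranked 53rd by width on the chromosome but 130th by score. Peaks 5 and 6 were equally wide with scores of 565.11 and 245.61. Width and score were both set by 1 run of peak calling, the window spans a narrow range of each, and the coefficients are given as a description.

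**Figure D3:**
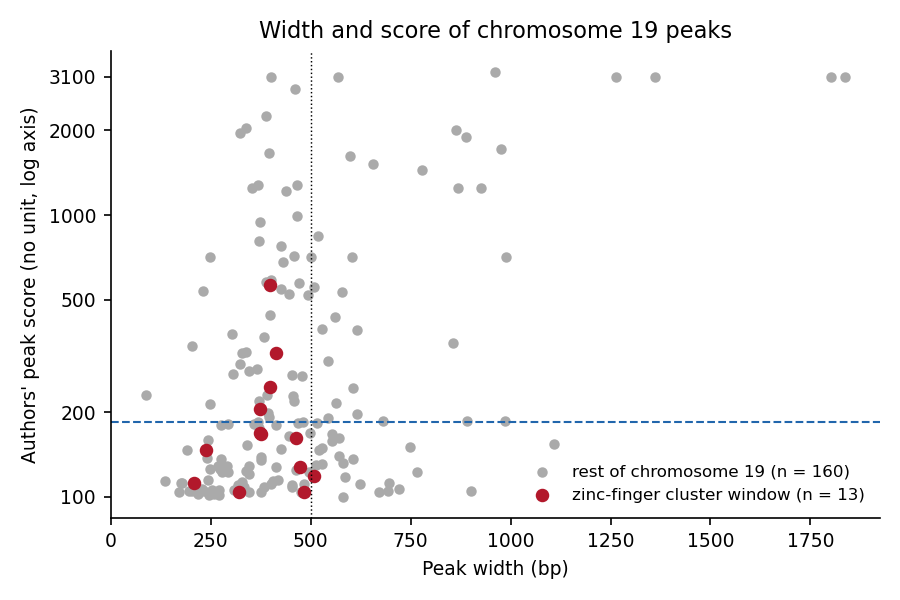
Width in bp against the authors' score (log axis) for the 13 window peaks (red) and the other 160 peaks of chromosome 19 (grey); the dotted line marks 500 bp and the dashed line the median score of the list, 185.1. The red points keep to 207 to 508 bp and at or below 565.11, and the grey points reach 1836 bp and 3224.61.

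Counted in windows of 1 Mb, 46 windows of chromosome 19 held a peak. The zinc-finger window had 13 peaks, or 7.51% of those on the chromosome, and the 45 others had a median of 4. The next were the window from 13 to 14 Mb with 9 peaks and that from 42 to 43 Mb with 8. The third place after it was shared by 7 windows with 6 peaks each, of which the neighbouring window from 45 to 46 Mb was one. Among the 16 windows with 5 or more peaks, 5 held a peak at 3100 or more. The zinc-finger window was 1 of 3 in which no peak exceeded 565.11, with those from 4 to 5 Mb (highest score 536.20) and from 36 to 37 Mb (441.28). That limit is the highest score of the zinc-finger window itself, which therefore meets it by construction.

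The lead of the zinc-finger window, which was chosen by its number of peaks without a score limit, was lost as the limit rose. With scores of at least 120 it held 9 peaks and the fullest other window 8. At 150 both had 7, and at 200 it had 4, as many as the fullest others. At 300 it had 2, and 9 windows of chromosome 19 had more. At 500 it had 1, and 12 windows had more. As shares, 69.2% of window peaks and 75% of the other 160 peaks of chromosome 19 scored at least 120. At least 150 was reached by 53.8% and 58.8%, and at least 200 by 30.8% and 43.1%. At least 300 was reached by 15.4% and 34.4%, and at least 500 by 7.69% and 27.5%. The differences between these shares were not tested. Counting only peaks at or above the median of the list left 4, against 7 in the window from 13 to 14 Mb. The 11 peaks of the cluster part supplied all 7 window peaks that scored at least 150. That part holds 11 of the 13 window peaks, and peak 1 beside it scored 146.83, just under that limit.

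**Figure D4:**
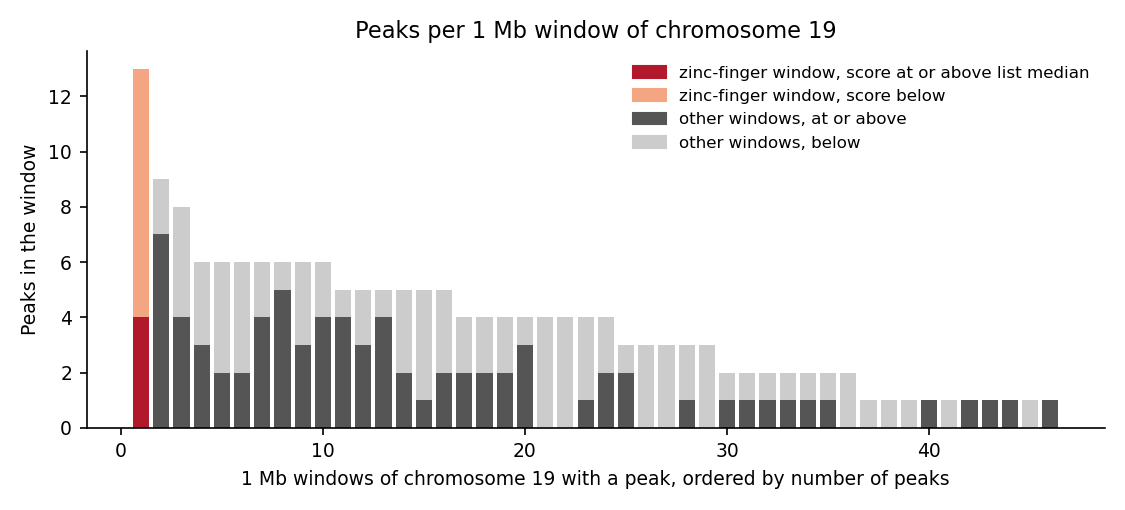
Number of peaks in each of the 46 windows of 1 Mb on chromosome 19 that held a peak, ordered by that number; the dark part of each bar counts peaks at or above the median score of the list and the light part those below. The zinc-finger window (red) is first with 13 peaks, 4 of them in the dark part, and the next bar has 9 peaks with 7 in the dark part.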

How the data were processed

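Miz1 ChIP-seq peaks of the line labelled MDA-MD-231 were taken from the authors' list. CASAVA, FastQC, Bowtie 0.12.7 and MACS 1.4.2, and the builds hg19 and GRCh37, are named in the submitters' processing notes; the sources used here give neither their settings, nor the use of the input, nor the depth. The deposited list has a chromosome, a start, an end, a name and a score per peak. The score is the authors' deposited value with no stated scale, and the positions are their deposited coordinates, another unit, printed counting from 1. Gene tables used here were of mouse (GRCm38.p6), so tests of gene starts and sequence were not run and no coordinates were converted. Members were peaks with centres in the window, and all 13 are named. The region, its members and the gene list were chosen with earlier results of these data known. Medians, exact Clopper-Pearson shares and order-statistic intervals were computed with pandas 2.3.3 and scipy 1.17.1 at the 95% level; no filter was applied. With 1 library, no test between conditions was possible, and no test over peaks was made. The computation of member count, median width and spacing was checked on 20 simulated lists with planted peaks, and returned what was planted in 20. Scores, shares and nearest distances were not checked in this way. Alternatives were other rules for membership, merging of peaks less than 1 kb apart, a limit on score, and other comparison sets.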

Additional observations from a re-analysis of the deposited data

How the results depend on the processing

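Of 25 alternatives over 9 results, 19 kept their sign and a value within the interval of the reported one or, for counts, within 1.5 times. A score limit at the median of the list left 4 peaks in the window and 4 in the cluster part, and 0% of them were wider than 500 bp; fewer peaks follow from the limit itself. The median width was 22.5 bp below that of the rest of chromosome 19 (difference -22.5 bp, interval -101.5 to 51.5 bp), but 54 bp above that of the list outside the window and 12.5 bp above that of the 58 chromosome 19 peaks within 10 Mb. The median score was below the rest of chromosome 19 (difference -20.71, interval -69.87 to 63.41) and above those nearby peaks (4.39); the comparison within 10 Mb was chosen after seeing the data. Both intervals, which carry the error of the window median alone, include 0, and the values within 10 Mb lie inside them. The cause of these changes of sign was not tested. Merging peaks 11 and 12 gave 12 peaks, of which 16.7% were wider than 500 bp. The merged peak was 1578 bp wide, more than any single window peak. The unknown depth limits what a missing peak can show. No paired analysis was possible because each group has 1 library.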
